A study of Rattus norvegicus with 6 samples.

Results

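The circadian clock genes measured here were 10 genes of rat liver: Clock, Bmal1, Npas2, Per1, Per2, Per3, Cry1, Nr1d1, Dbp and Usp2. Their probes were the array spots other than controls whose RefSeq accession belongs to 1 of these genes, which gave 24 of 61537 probes. RefSeq accessions name 15645 genes on the array. All 10 genes had at least 1 probe well above background on every array, and all 10 entered the test among 29326 features. RNA came from the livers of 6 male Sprague-Dawley rats bought at 5 weeks of age and kept in 12 h of light and 12 h of darkness, with 1 array per animal. The TBBC group (n = 3) had been dosed at 300 mg/kg/day with TBBC, a thiobis compound of tert-butyl-m-cresol units used as an antioxidant, and the vehicle group (n = 3) had been given corn oil. The labels differ on the length of dosing, with 28 days in the series text and 9 weeks in the treatment protocol. The hour of death is not given in the sources used here.

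The clock of mammalian cells is a loop of transcription and repression. CLOCK or its relative NPAS2 pairs with BMAL1, binds E-box sequences and switches on the Per, Cry, Nr1d1 and Dbp genes. PER and CRY proteins then block that pair, while NR1D1 (REV-ERB alpha) represses Bmal1 through ROR response elements. In rodent liver the transcripts of this positive limb (Bmal1, Npas2 and, less strongly, Clock) are therefore abundant from late night to early light, and those of Nr1d1, Dbp, Usp2 and the Per genes are abundant at other hours, from the light phase to early night. Cry1 follows late in the night. The peaks are spread over the day, so a shift of phase moves some members apart and others together.

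The promoters of Bmal1 and Per2, a gene of each limb, are shown for the motifs through which the loop is known to act. The windows are the 250 bases before the start of transcription in the RefSeq table (GRCr8, Brown Norway rat), given 5′ to 3′, with the motifs in capitals. The Bmal1 window is on the plus strand at chr1:176766078-176766327, and its capitals mark a ROR response element. The Per2 window is on the minus strand at chr9:99496994-99497243, and its capitals mark a D-box (TTANGTAA, the site of DBP and its relatives) and then an E-prime box (CACGTT).
Bmal1: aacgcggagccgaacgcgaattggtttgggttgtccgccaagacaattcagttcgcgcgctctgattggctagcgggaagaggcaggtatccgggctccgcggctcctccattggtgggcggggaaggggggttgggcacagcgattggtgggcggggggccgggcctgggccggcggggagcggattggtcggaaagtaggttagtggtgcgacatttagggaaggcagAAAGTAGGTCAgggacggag
Per2: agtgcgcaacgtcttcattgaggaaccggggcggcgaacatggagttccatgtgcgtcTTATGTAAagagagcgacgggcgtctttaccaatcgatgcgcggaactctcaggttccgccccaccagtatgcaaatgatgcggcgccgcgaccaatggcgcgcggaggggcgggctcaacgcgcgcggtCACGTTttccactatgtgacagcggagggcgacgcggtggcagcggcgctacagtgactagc
Motifs were searched on both strands. Of 33469 promoter windows of this length, 0.161% held the ROR response element, 2.04% the D-box, 4.07% the E-prime box and 5.59% the E-box CACGTG. Of the 9 clock genes with a promoter entry, 3 held a motif: Bmal1, Per2 and Nr1d1, which had an E-box in one of its windows and an E-prime box in the other. The windows of Npas2 and Usp2 held none of these letters, which says nothing about the factors themselves. A match is a description of the letters, not evidence of binding in these livers.

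The 6 arrays had a 75th percentile of signal of 465.2 to 638.2, with 36919 to 39386 probes each above background by the scanner's flag. The level of a probe is given below as log2 of its processed signal minus the array's 75th percentile, so that 0 is the level of that percentile. Hepatocyte markers were well above background on all arrays (6 of 6). All TBBC arrays lay on 1 slide and all vehicle arrays on another, with 1 scan each, so slide and treatment cannot be told apart. In RNA of whole liver, fewer cells of a type and less RNA per cell cannot be told apart either.

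The comparison of TBBC with vehicle asks whether the clock genes stood at the same phase in both groups. No clock gene passed the test: 0 of 10 rose and 0 fell at an adjusted p under 0.05 (limma, Benjamini-Hochberg over all features), where 3.08% of all features were called (1.68% higher and 1.4% lower) and 3.17% of those with a gene name. At an unadjusted p under 0.05 there were 3 clock genes (Bmal1, Npas2 and Usp2), where 23% of all features reached that level. The groups did not overlap for the same 3 genes, against 31.1% of all features (18.8% lower and 12.3% higher with TBBC), so that count is close to the background. The median log2 difference of the 10 genes, TBBC minus vehicle, was -0.17, and that of all features was -0.06. A gene that misses the threshold is not shown to be equal in the groups, so each 95% interval of the difference is given below.

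**Figure D1:**
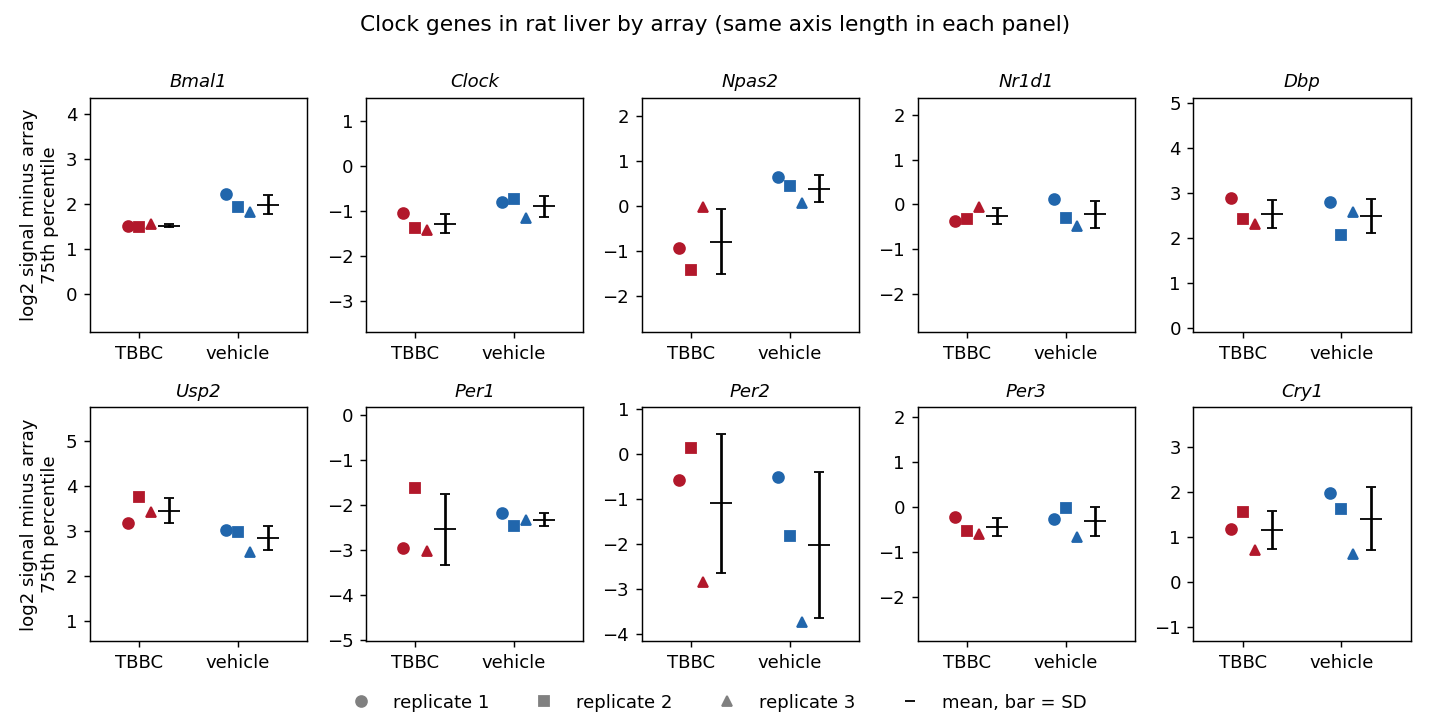
Level of each of the 10 clock genes on each array (y axis: log2 signal minus the array's 75th percentile; points are animals, black marks are the group mean with SD, n = 3). The TBBC and vehicle points mix in 7 genes; they are apart in Bmal1 and Npas2 (TBBC lower) and Usp2 (TBBC higher), and Per2 has the widest spread in both groups.

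Bmal1 encodes the shared partner of CLOCK and NPAS2, and its transcript is the usual marker of the positive limb. It stood at 1.52, 1.49 and 1.56 on the TBBC arrays, against 2.23, 1.93 and 1.82 on the vehicle arrays. The TBBC animals were almost alike and all below the lowest vehicle animal. The log2 difference was -0.47 ± 0.14 (SE, n = 3 per group), with a 95% interval of -0.80 to -0.15. This did not pass the test (unadjusted p = 0.0115 and limma adjusted p = 0.117). The other probe of Bmal1 gave -0.40, also without overlap of the groups.

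Npas2 encodes the relative of CLOCK that can take its place in the loop. Its levels were -0.93, -1.42 and -0.01 on the TBBC arrays, against 0.66, 0.45 and 0.08 on the vehicle arrays. TBBC replicate 3 lay just under vehicle replicate 3, and the other TBBC animals lay far below. The log2 difference was -1.18 ± 0.36 (SE, n = 3 per group; 95% interval -2.05 to -0.32), with a limma adjusted p of 0.130. Its other 2 probes gave -0.70 and -0.49, and the groups did not overlap on either.

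Clock, the DNA-binding partner of BMAL1, had levels of -1.04, -1.38 and -1.43 in TBBC livers, against -0.80, -0.73 and -1.16 in vehicle livers. The groups overlapped through TBBC replicate 1 and vehicle replicate 3. The difference was -0.39 ± 0.17 (log2, SE, n = 3 per group; 95% interval -0.80 to 0.02; limma adjusted p = 0.233). Its other probes gave -0.52, without overlap of the groups, and -0.26, with overlap.

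All 8 retained probes of Bmal1, Clock and Npas2 had a negative log2 difference, and 6 of them had groups that did not overlap. Of all 37222 retained probes, 55.8% had a negative difference and 31.2% had groups that did not overlap. Probes of 1 gene share its transcripts and are not independent, and none of the 8 passed. The size of these differences depended on how arrays were set on a common scale. Scaled on spike-in controls, which put the median of all features at 0.16 in place of -0.06, the log2 difference of Bmal1 was -0.25 and that of Clock -0.17. Spike-in scaling moves all features alike, so values relative to their median stay as they were, at -0.41 for Bmal1 and -0.33 for Clock. With normexp, which acts on each spot, these relative values were -0.24 for Bmal1 and -0.19 for Clock. The groups of Bmal1 and of Npas2 overlapped with spike-in scaling, and those of Npas2 also with median centring.

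**Figure D2:**
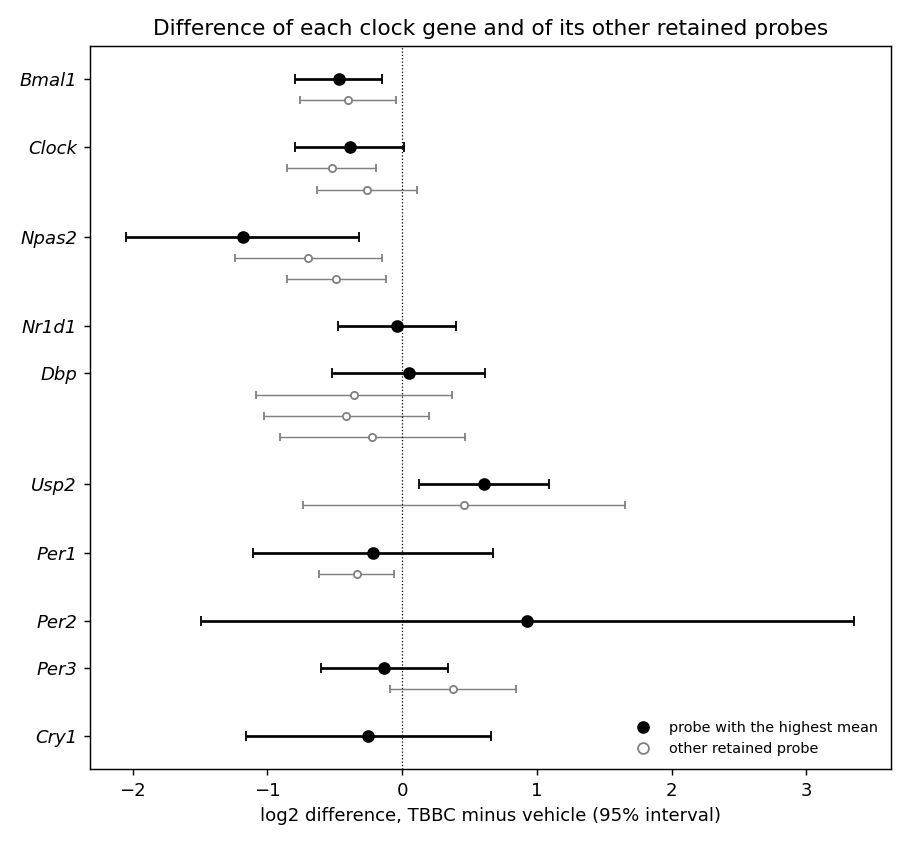
Log2 difference of TBBC minus vehicle for each clock gene (black) and for its other retained probes (grey), with 95% intervals from the fit before adjustment; the dotted line is no difference. The points of all probes of Bmal1, Clock and Npas2 lie left of the line, but the black interval of Clock crosses it. The black intervals of Nr1d1, Dbp, Per1, Per2, Per3 and Cry1 cross it as well, and that of Per2 is the widest.

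Nr1d1, the repressor of Bmal1, showed levels of -0.37, -0.33 and -0.06 in TBBC livers, against 0.12, -0.29 and -0.48 in vehicle livers. The highest and the lowest value were both from vehicle animals. Its log2 difference was -0.04 ± 0.18 (SE, n = 3 per group; 95% interval -0.48 to 0.40; limma adjusted p = 0.915). Since the median of all features was -0.06, its value relative to that median was 0.02, and its sign was positive with median centring (0.06), spike-in scaling (0.18) and normexp (0.06). With quantile normalization it stayed negative (-0.04).

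Dbp encodes a D-box factor that the clock drives strongly in liver and that in turn drives drug-metabolism genes. Its levels were 2.88, 2.41 and 2.31 in TBBC livers, against 2.80, 2.07 and 2.58 in vehicle livers. The groups interleaved. The log2 difference was 0.05 ± 0.24 (SE, n = 3 per group; 95% interval -0.52 to 0.62; limma adjusted p = 0.918). Its other 3 probes gave -0.35, -0.41 and -0.22, all with overlapping groups, so the sign differed between probes of the same gene.

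Usp2, a ubiquitin-specific protease whose liver transcript follows the clock, had levels of 3.18, 3.75 and 3.41 in TBBC livers, against 3.03, 2.96 and 2.52 in vehicle livers. All TBBC animals were above all vehicle animals, and this held with quantile normalization, median centring, spike-in scaling and normexp. Its difference was 0.61 ± 0.20 (log2, SE, n = 3 per group; 95% interval 0.13 to 1.09; unadjusted p = 0.0207 and limma adjusted p = 0.149). The other Usp2 probe gave 0.46 with overlapping groups, since TBBC replicate 2 (1.47) and vehicle replicate 1 (1.02) both stood above the rest.

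The Period genes encode the repressors that close the loop, and their acute response to stress hormones and feeding makes Per1 and Per2 less strict markers of phase. Per1 had levels of -2.97, -1.64 and -3.03 in TBBC livers, against -2.18, -2.48 and -2.34 in vehicle livers. TBBC replicate 2 was the highest and the other TBBC animals were the lowest of all 6. The log2 difference was -0.21 ± 0.37 (SE, n = 3 per group; 95% interval -1.11 to 0.68; limma adjusted p = 0.753). The other probe of Per1 did not set TBBC replicate 2 apart, with -4.22, -4.04 and -4.13 in TBBC livers against -3.83, -3.89 and -3.66 in vehicle livers. There the difference was -0.34 without overlap of the groups on this scale. The processed signals of that probe were low, and they overlapped before scaling. They were 33.1, 38.2 and 36.4 in TBBC livers, against 40.7, 31.3 and 47.4 in vehicle livers.

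Per2 had levels of -0.59, 0.13 and -2.84 in TBBC livers, against -0.52, -1.83 and -3.75 in vehicle livers. In each group replicate 3 was far below the others. The processed signal was 683.7 on TBBC replicate 2 and 44.5 on vehicle replicate 3, a 15.4-fold span, with the probe well above background on all 6 arrays. The difference was 0.93 ± 1.01 (log2, SE, n = 3 per group; 95% interval -1.49 to 3.35; limma adjusted p = 0.604), so a difference of several-fold in either direction is within the interval. It was 1.80 without TBBC replicate 3 and 0.07 without vehicle replicate 3. Per2 had 1 probe, so no other probe could be set beside it.

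Per3, the member of the family that is the least needed for rhythm in mice, had levels of -0.23, -0.54 and -0.61 in TBBC livers, against -0.26, -0.03 and -0.68 in vehicle livers. The groups overlapped throughout. The log2 difference was -0.13 ± 0.20 (SE, n = 3 per group; 95% interval -0.61 to 0.34; limma adjusted p = 0.716). Of the other 4 probes, 1 was tested and gave 0.38 with overlapping groups, opposite in sign. The remaining 3 stood above background on 0 vehicle arrays and on at most 1 TBBC array, and were not tested.

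Cry1 encodes the repressor that peaks last in the cycle. It stood at 1.19, 1.56 and 0.72 in TBBC livers, against 1.98, 1.62 and 0.62 in vehicle livers. Both groups spanned much of the same range. The log2 difference was -0.25 ± 0.38 (SE, n = 3 per group; 95% interval -1.16 to 0.66; limma adjusted p = 0.718).

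The limbs were set side by side as phase markers. The median deviation of Bmal1, Clock and Npas2 from the vehicle mean was -0.48, -0.50 and -0.44 on the TBBC arrays, against 0.24, 0.06 and -0.27 on the vehicle arrays. The median deviation of Nr1d1, Dbp, Usp2 and the Per genes was 0.22, 0.31 and -0.23 on the TBBC arrays, against 0.25, 0.03 and -0.29 on the vehicle arrays. The medians of the positive limb did not overlap between the groups on this scale, but Clock by itself overlapped, and Bmal1 and Npas2 overlapped with spike-in scaling. On each TBBC array that median was the value of Bmal1 itself. Its lack of overlap thus largely restates that of Bmal1 and is not a separate result for the limb. Of all features, 18.8% had no overlap with TBBC lower. The medians of the other limb overlapped. Within that other limb 3 genes had a positive difference (Dbp, Usp2 and Per2) and 3 a negative one (Nr1d1, Per1 and Per3). These medians are a description with no test.

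Animals of 1 group differed from each other more in some clock genes than most features did. The pooled SD within groups was 1.59 for Per2 on the log2 scale, higher than in 99.7% of all features. It was 0.58 for Cry1, 0.57 for Per1 and 0.55 for Npas2, each above the value of 0.47 that marks the 90th percentile of all features. Bmal1, at 0.15, was below the median of all features (0.20), and Clock, Nr1d1, Per3, Usp2 and Dbp lay between 0.22 and 0.34.

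**Figure D3:**
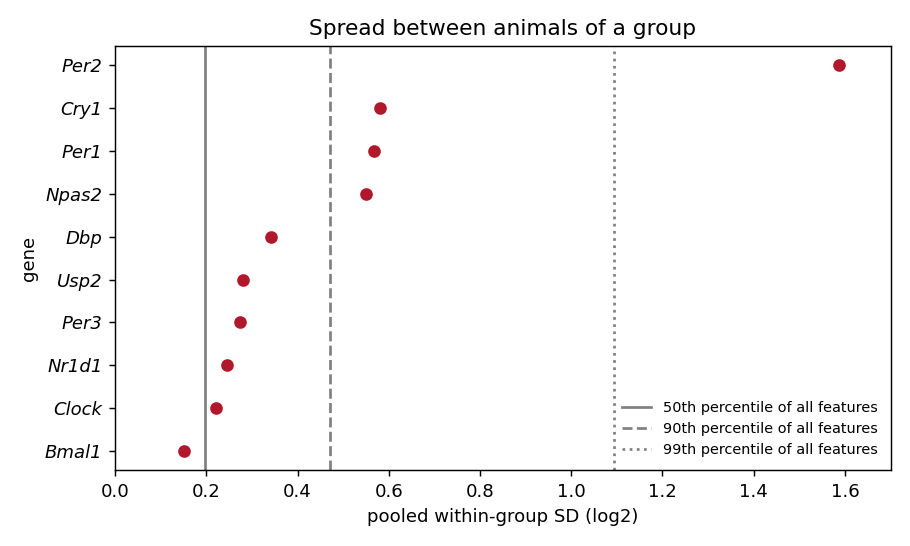
Pooled SD within groups (x axis, log2) of each of the 10 clock genes, with lines at the 50th, 90th and 99th percentile of all 29326 features. Per2 (1.59) lies past the 99th percentile (1.09), Cry1, Per1 and Npas2 lie past the 90th, and Bmal1 lies below the median.

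Single animals of the vehicle group differed in how many clock genes stood above the group's mean. Vehicle replicate 1 was above its group's mean in all 10 clock genes, where 49.2% of all features were above it on that array. Vehicle replicate 3 was below the mean in 9 of the 10, Dbp being the exception, and 44.2% of all features were above the mean there. Vehicle replicate 2 was above in 6 and below in 4, with 56% of all features above. Deviations from a mean of 3 animals sum to 0, so these counts are not independent of each other. Genes of both limbs were thus on the same side in vehicle replicate 1 and, apart from Dbp, in vehicle replicate 3. In the TBBC group the clock genes above the mean numbered 5, 4 and 3 on replicates 1 to 3. Per2 and Cry1 deviated to the same side on each of the 6 arrays, by 0.51, 1.23 and -1.74 for Per2 in TBBC livers, against 1.51, 0.20 and -1.72 in vehicle livers. The matching deviations of Cry1 were 0.03, 0.41 and -0.44 in TBBC livers, against 0.57, 0.21 and -0.79 in vehicle livers. Clock and Per3 also shared their side on every array, and so did Bmal1 and Nr1d1. Such agreement was therefore not particular to Per2 and Cry1, and it also joined genes of opposite limbs. These counts were made, and these pairs picked, after the values were seen.

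**Figure D4:**
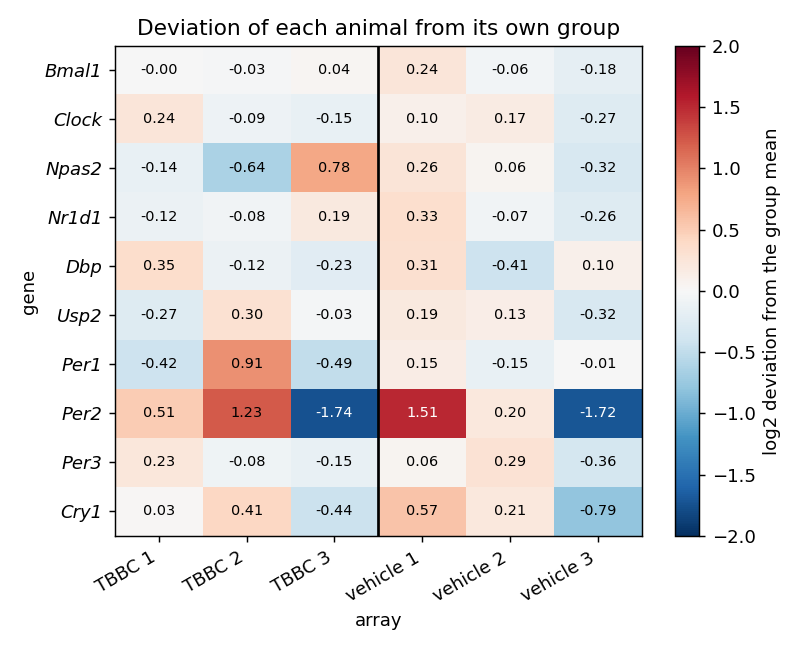
Deviation of each animal from the mean of its own group (columns: arrays, TBBC left and vehicle right; rows: clock genes; numbers and colour: log2). The vehicle replicate 1 column is positive in all 10 genes, the vehicle replicate 3 column is negative in all but Dbp, and the Per2 row has the strongest colours.

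By likeness of pattern over the 6 arrays, the genes closest to Dbp were Csad (Pearson r = 0.995), Med19 (0.988) and Bod1 (0.979) among 11234 other named genes. No other clock gene of the 10 came near the top of that order: the closest was Per2 at rank 2449 (r = 0.31). Closest to Bmal1 were Gulo (r = 0.997), Ptpa (0.993) and Or10g9b (0.991), and Npas2 stood at rank 604 (r = 0.84) and Clock at rank 1009 (r = 0.78). The 6 arrays fall into the TBBC and vehicle groups, share the scaling, and are few for a search among so many genes, so these values are a description.

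Other genes of the clock and its outputs gave 1 call among the 32 tested and reported, in the list of rhythmic liver outputs. That count is at the background, since 3.08% of all features were called. Of 4 tested genes that were listed with the loop beyond the 10 (Cry2, Nr1d2, Bhlhe40 and Timeless), 0 rose and 0 fell, with a median log2 difference of 0.08. Timeless differed by 0.00 ± 0.15 and the E-box repressor Bhlhe40 by -0.43 ± 0.42 (SE, n = 3 per group). Both tested D-box factors missed the threshold as well. Tef, a relative of Dbp, differed by 0.18 ± 0.16. Nfil3, a repressor at the same sites, differed by 0.54 ± 0.15 (limma adjusted p = 0.111), with 2.07, 1.82 and 2.18 in TBBC livers against 1.28, 1.56 and 1.61 in vehicle livers. The groups of Nfil3 did not overlap. Of 6 genes for the turnover of clock proteins, 0 rose and 0 fell (median 0.05), with the casein kinase Csnk1d at 0.18 ± 0.11 and the kinase Gsk3b at -0.01 ± 0.12.

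Of 11 tested outputs with a daily rhythm in liver, 1 rose, 0 fell and 10 did not pass (median log2 difference 0.10), where 1.68% of all features rose. At an unadjusted limma p under 0.05 there were 5 of the 11, where 23% of all features reached that level. The groups did not overlap for 3 of them, against 31.1% of all features. Por encodes the reductase that passes electrons to cytochromes P450 and is induced by foreign chemicals as well as by the clock. Its levels were 4.37, 5.36 and 5.09 in TBBC livers, against 3.31, 2.91 and 3.16 in vehicle livers. It rose by 1.81 ± 0.27 on the log2 scale (limma adjusted p = 0.0282), and the call was lost in 7 of 18 alternative settings. Among outputs that did not pass, Noct, a deadenylase with a strong daily rhythm, had levels of -1.23, 1.83 and -1.77 in TBBC livers, against 0.76, -2.28 and -0.27 in vehicle livers. Noct is named for its values, outside the rule for named genes, because of a spread like that of Per2.

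Of 9 glucocorticoid-responsive genes, hormone targets that share with Per1 a response to adrenal steroids, 0 rose and 0 fell (median -0.24). Pck1, the gate enzyme of gluconeogenesis, differed by -0.45 ± 0.13 (limma adjusted p = 0.115), and Igfbp1, a fasting-induced binding protein, by -0.02 ± 0.50 (SE, n = 3 per group).

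**Figure D5:**
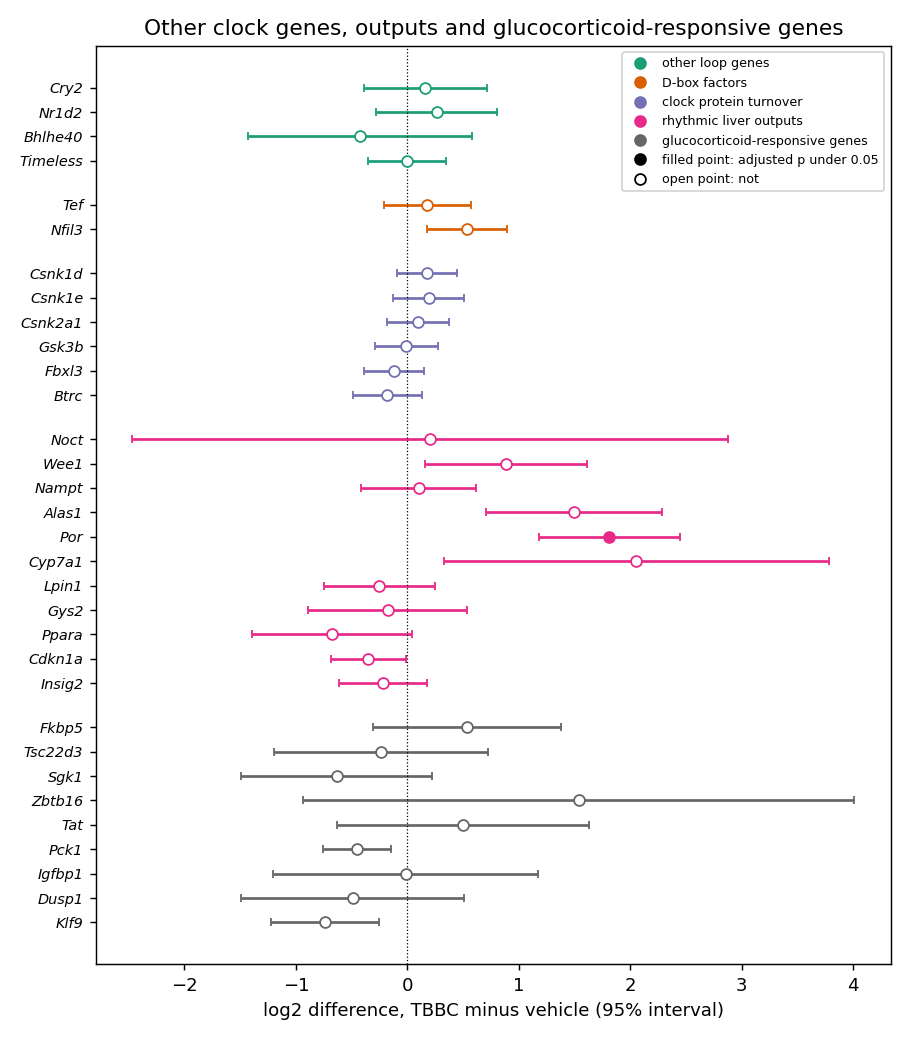
Log2 difference of TBBC minus vehicle with its 95% interval for 32 tested genes of the 5 further lists (colours); filled points passed the adjusted threshold of 0.05. Por (1.81) is filled and all others are open.

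Markers of other cell types were set beside these values. Of the tested markers, Epcam of the 4 for bile duct cells rose (1.83 ± 0.21, limma adjusted p = 0.0147) and Ahsg of the 6 for hepatocytes fell (-0.83 ± 0.12, adjusted p = 0.0292). None of the tested markers of myeloid (7 of 7), endothelial (3 of 5), stellate (6 of 6), lymphoid (3 of 7) or erythroid cells (3 of 3) passed. Not tested here were Sox9 of the bile duct list, Stab2 and Clec4g, and the lymphoid Cd3e, Cd2, Cd79a and Ms4a1. The summed level of the bile duct markers (linear, relative to the 75th percentile) was 2.68 to 4.09 on TBBC arrays, against 1.12 to 1.23 on vehicle arrays. Epcam carried most of that sum. The log2 differences of the other 3 were 0.44 for Krt19, 0.25 for Spp1 and -0.33 for Krt7, with overlapping groups, and Krt7 was not well above background on every array. That of the hepatocyte markers was 4090 to 4162 on TBBC arrays, against 4824 to 5513 on vehicle arrays. The lymphoid sum was 1.60 to 2.16 on TBBC arrays, against 2.28 to 2.55 on vehicle arrays, and the other sums overlapped between the groups. Their part in the values of the clock genes was not tested.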

How the data were processed

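The deposited files are the scanner output of 1-colour Agilent arrays, in linear units of spot intensity. Feature Extraction 10.7.1.1 was used by the authors to extract the intensity, per the file headers (the submitters' processing notes give 10.7). It subtracts background and flags spots well above it. The deposited value table holds the same intensity times 1 constant per array (column medians 0.0977, 0.0972 and 0.0974 for TBBC, 0.1012, 0.1077 and 0.1033 for vehicle) and served as an alternative. Per the file headers, the array design uses the build rn4, so no coordinates of probes are given; promoters come from a RefSeq table of GRCr8.

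Each array held 61537 probes other than controls. Values were log2 processed signal minus the array's 75th percentile. Left out were 25 probes with an outlier flag and those that in neither group were well above background on every array (37222 remained). RefSeq accessions named 28206 probes. Of several probes of a gene, the one of highest mean stood for it, giving 29326 features. The test was limma 3.58.1 (lmFit and eBayes, two-sided, R 4.3.3) without covariates, and p-values were adjusted by Benjamini-Hochberg over all features. It was tested on simulated data. Intervals and unadjusted p-values come from the same fit. The labels speak of separate animals; the number of arrays limits the precision.

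The 10 members and the lists were chosen with earlier results of these data known. Some genes of the further lists are not reported here, and the lists' counts and medians leave them out. Named are the 10 members, each list's genes past the threshold or, where none passed, the 2 with the highest mean, and 3 genes most like Dbp and Bmal1. Alternatives were other scalings, normexp on median signals, other filters and probe rules, the deposited table, other variance models, a replicate block and leaving out each array.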

Additional observations from a re-analysis of the deposited data

How the results depend on the processing

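No clock gene passed in any of the 18 alternative settings, where the lowest limma adjusted p was 0.0594 (Npas2). Bmal1, Clock, Npas2, Usp2 and Per2 kept their sign in all 18. The other 5 genes changed sign in 15 of their 90 values, none of them past the threshold. Several settings left the differences as they were, so these counts overstate how stable the signs are. The difference of every clock gene was the same with the other filters, eBayes with trend, the replicate block and each probe tested singly. The deposited table, a rescaling of the same intensity, hardly moved it (Bmal1 -0.469, against -0.471). Nr1d1 was 0.057 with median centring, 0.18 with spike-in scaling and 0.056 with normexp, and ranged from -0.17 to 0.13 without each array in turn. Dbp was -0.23 as the mean of its probes and -0.080 with array weights (-0.16 to 0.21 without each array). Per1 was 0.0060 with spike-in scaling (-0.67 to 0.029 without each array), Per3 was 0.090 with spike-in scaling and 0.12 as the mean of its probes (-0.31 to 0.017), and Cry1 ranged from -0.64 to 0.036. Median centring and spike-in scaling move all features alike (their median was -0.06, against 0.03 with median centring and 0.16 with spike-in scaling), so sign changes under them restate that shift; relative to the median Nr1d1 was 0.02 in all 3. The cause of the other changes was not tested.

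Over all features, 902 passed, against 1590 with normexp, 194 without a filter on dim probes and 120 to 355 without 1 array. Of the 32 other clock and output genes 1 passed, against 2 with spike-in scaling, normexp or the mean of a gene's probes, 0 of 34 without a filter and 0 to 1 without 1 array. With their 53 probes tested singly, 2 of those genes had at least 1 probe that passed. With the replicate number as a block, 211 features and 0 of those genes passed. Over all features, animals with the same number deviated together with correlations of 0.0035, -0.022 and 0.14. Only replicate 3 matched best its own number. Correlations over all features cannot show whether the animals were paired in a small set of genes such as Per2, so pairing by number was not settled. With 3 arrays per group, intervals such as that of Per2 leave several-fold differences undetectable.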
